A study of Mus musculus with 25 samples.

Results

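The calmodulin-dependent kinases of 2 mouse islet cell lines are described here at the level of RNA and of open chromatin. The family is represented by 9 genes, chosen by symbol from the 24439 genes of the RNA-seq tables: the CaMKII subunit genes Camk2a, Camk2b, Camk2d and Camk2g, the effector kinase genes Camk1, Camk1d and Camk4, and the upstream kinase genes Camkk1 and Camkk2. Of the 65053 consensus ATAC-seq peaks (regions of open chromatin, in coordinates of the mm9 build), the 39 whose nearest annotated gene is one of these genes were taken as their peaks. αTC1 (alpha TC1 clone 6, labelled aTC1) is a glucagon-producing line and βTC6 (beta-TC-6, labelled bTC6) an insulin-producing line, both tumour-derived pancreatic lines grown untreated in culture, and αTC1 is 1 clone. The lines were kept in different media, so line and medium cannot be told apart. RNA-seq was done on 3 libraries of each pure line, and ATAC-seq on 5 libraries of each pure line and on 9 mixtures in which βTC6 cells made up 10% to 90% of the cells in steps of 10 percentage points, the rest being αTC1 cells. Whether the replicates are separate cultures is not stated in the labels, and p-values then measure only the spread between these libraries, which may be technical.

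Calcium entering a cell binds calmodulin, and calcium-calmodulin switches on these serine/threonine kinases. CaMKII is a large multimer built from α, β, δ and γ subunits that can keep itself active by autophosphorylation, whereas CaMKI and CaMKIV are single-chain kinases that need phosphorylation by a CaMK kinase (CaMKK) for full activity. In islet cells, where calcium entry triggers hormone release, CaMKII is known for its role in insulin secretion, and CaMKIV for phosphorylation of the transcription factor CREB.

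The libraries carried the marker genes of their labels. Gcg, encoding glucagon, ranged from 12113 to 14406 FPKM (fragments per kilobase of transcript, scaled by sequencing depth) in the αTC1 libraries and from 172 to 267 in the βTC6 libraries. Ins2, encoding insulin, ranged from 0.19 to 0.64 in the αTC1 libraries and from 23541 to 35748 in the βTC6 libraries. Sst, the delta cell hormone gene, ranged from 207 to 325 FPKM in βTC6 and was listed at 0 in αTC1, and Ppy ranged from 3.70 to 50.8 in βTC6. The 6 markers of exocrine, mesenchymal, endothelial and blood cells reached at most 0.28 FPKM. The RNA-seq libraries held between 21954031 and 26033482 expected counts (RSEM estimates of reads per gene), and the pure ATAC-seq libraries between 4397851 and 10374903 reads in peaks.

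Of the 9 kinase genes, 8 were expressed at 1 FPKM or more in every library of at least 1 line, and the FPKM ranges of the lines did not overlap for any of these 8, as for 77.7% of all genes tested. Camk2b, Camkk1, Camk1d, Camk2d, Camk2g and Camkk2 were higher in βTC6 and Camk1 and Camk4 were higher in αTC1, each at an FDR under 5% (edgeR's quasi-likelihood test with Benjamini-Hochberg adjustment over all 12195 genes tested). The 6 genes higher in βTC6 stand against a background of 38.7% of all genes tested, and the 2 higher in αTC1 against 36.0%. Camk2b and Camkk1 also passed the stricter threshold of an absolute log2 fold change over 2, which 10.2% of all genes passed with higher values in βTC6 and 4.08% with higher values in αTC1. The median log2 fold change, βTC6 over αTC1 as throughout, was 1.09 over the 8 kinase genes tested and 0.0094 over all genes tested. In bulk RNA, fewer expressing cells and less RNA per cell cannot be told apart.

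On the per-length FPKM scale the order of the kinases differed between the lines. In αTC1, Camk1 was the most abundant at 29.2 ± 1.46 FPKM (mean ± SD, n = 3), followed by Camk4 at 18.5 ± 1.14, Camk2d at 14.6 ± 0.773, Camk2g at 5.89 ± 0.299, Camkk2 at 5.72 ± 0.326, Camk2b at 4.12 ± 0.352, Camkk1 at 1.94 ± 0.255 and Camk1d at 0.613 ± 0.0208. The ranges of the 3 libraries overlapped there only for the neighbours Camk2g and Camkk2. In βTC6, Camk2b led at 33.1 ± 3.49 FPKM, next to Camk2d at 32.4 ± 4.65, and the ranges of these genes overlapped. Camk1 at 13.7 ± 1.20 came next, apart from both. Camkk1 at 11.5 ± 0.658, Camk2g at 10.6 ± 0.892, Camkk2 at 9.56 ± 1.51 and Camk4 at 7.95 ± 0.736 followed, each overlapping its neighbour, and Camk1d stood at 2.11 ± 0.592. Camk2a was last in both lines, at 0.060 FPKM on average in each.

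**Figure D1:**
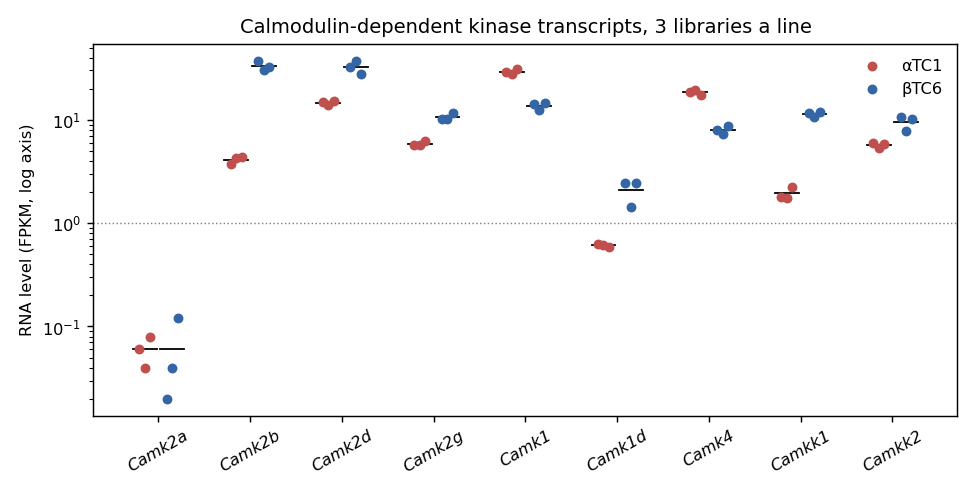
RNA level of the 9 kinase genes in FPKM (log axis) in each of the 3 αTC1 libraries (red) and 3 βTC6 libraries (blue). Black bars are means and the dotted line marks 1 FPKM. Apart from Camk2a, where all 6 libraries lie between 0.02 and 0.12, the points of the lines do not overlap, with Camk1 and Camk4 higher in αTC1 and the other 6 higher in βTC6.

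Among the CaMKII subunits, Camk2b (ENSMUSG00000057897), encoding the β subunit, which binds actin filaments, showed the widest difference. Its level was 3.72, 4.24 and 4.39 FPKM in the αTC1 libraries and 37.0, 30.2 and 32.1 in the βTC6 libraries. The βTC6 values were all far above the αTC1 values, with 290 to 393 expected counts behind the latter, and the log2 fold change was 2.98 (SE 0.10, adjusted p = 3.02e-08 from edgeR), or 7.89-fold. Camk2d (ENSMUSG00000053819), encoding the δ subunit, had 14.9, 13.8 and 15.2 FPKM in αTC1 and 32.2, 37.2 and 27.9 in βTC6. It was higher in every βTC6 library, by 1.28 on the log2 scale (SE 0.11, adjusted p = 7.20e-06 from edgeR). Camk2g (ENSMUSG00000021820), encoding the γ subunit, had 5.75, 5.68 and 6.23 FPKM in αTC1 and 10.1, 10.1 and 11.7 in βTC6, a log2 fold change of 0.91 (SE 0.10, adjusted p = 2.79e-05 from edgeR). Camk2g lies on chromosome 14, where the median log2 fold change of all 415 genes tested was 1.20, above that of Camk2g, and the part of that chromosome-wide level in the result was not tested. With library sizes set by the ERCC spike-ins, the log2 fold change of Camk2g was 0.85 and its adjusted p 0.128.

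Camk2a (ENSMUSG00000024617), encoding the α subunit that predominates in forebrain neurons, was close to the limit of detection in both lines. Its expected counts were 4, 3 and 7 in αTC1 and 3, 3 and 5 in βTC6, against a floor of 3 counts per library, so no fold change is given and a difference was not detectable at this depth. The gene failed the expression filter and is the 1 family member that was not tested.

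The summed FPKM of the 4 CaMKII genes was 24.4, 23.7 and 25.9 in the αTC1 libraries and 79.3, 77.5 and 71.7 in the βTC6 libraries. Both the sum and its make-up differed without overlap between the lines. Camk2b made up 15.2%, 17.9% and 16.9% of the sum in αTC1 and 46.6%, 39.0% and 44.7% in βTC6. The share of Camk2d was 61.0%, 58.0% and 58.7% in αTC1 and 40.6%, 47.9% and 38.9% in βTC6, so that its share was lower in βTC6 although its level was higher there. Camk2g made up 23.8% ± 0.268 (SD, n = 3) of the sum in αTC1 and 14.0% ± 1.95 in βTC6, and Camk2a stayed below 0.31% in every library. These shares are of transcript levels and not of protein.

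**Figure D2:**
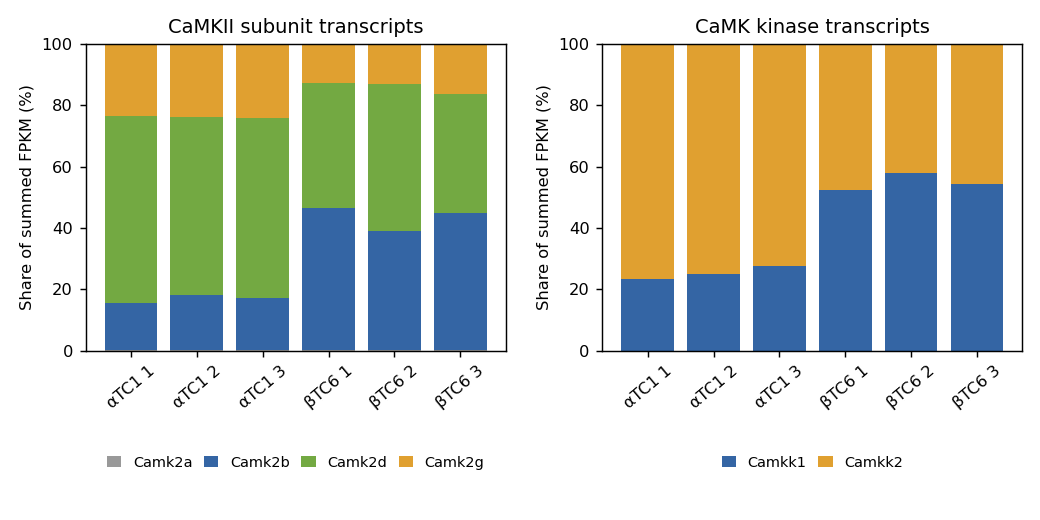
Share of each gene in the summed FPKM of the CaMKII subunits (left) and of the CaMK kinases (right), in percent, for each RNA-seq library. In every βTC6 library Camk2b makes up 39.0% or more of the CaMKII sum, against 17.9% or less in αTC1, and Camkk1 52.3% or more of the CaMKK sum, against 27.5% or less.

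Chromatin around the kinase genes was compared on the TMM-normalized read count, the reads in a peak scaled by library size, with limma on log2(normalized read count + 1), so that the fold changes of low peaks are understated. Of the 39 peaks, 16 had higher values in βTC6 and 11 had higher values in αTC1 with an FDR under 5%, against backgrounds of 39.9% and 38.1% of all 65053 peaks. Past an absolute log2 fold change of 2 as well, 5 were higher in βTC6 and 4 were higher in αTC1, against backgrounds of 12.9% and 5.38%. Quantile normalization, which moved the split of all called peaks from 8409 and 3502 to 5655 and 5126, gave 3 and 5 here. Replicates 1 to 3 alone gave 3 and 3, and replicates 4 and 5 alone gave 5 and 4. Over the 39 peaks the median absolute log2 fold change was 0.90, beside 0.97 over all peaks. All 9 called peaks lay more than 2 kb from the transcription start, and none of the 8 peaks within 2 kb of a start passed the fold-change threshold. The start-site peak of Camk2a came closest, as described below. How often peaks within and beyond 2 kb of a start were called among all 65053 peaks was not determined. Nothing particular to the kinase genes is therefore read from this split.

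**Figure D3:**
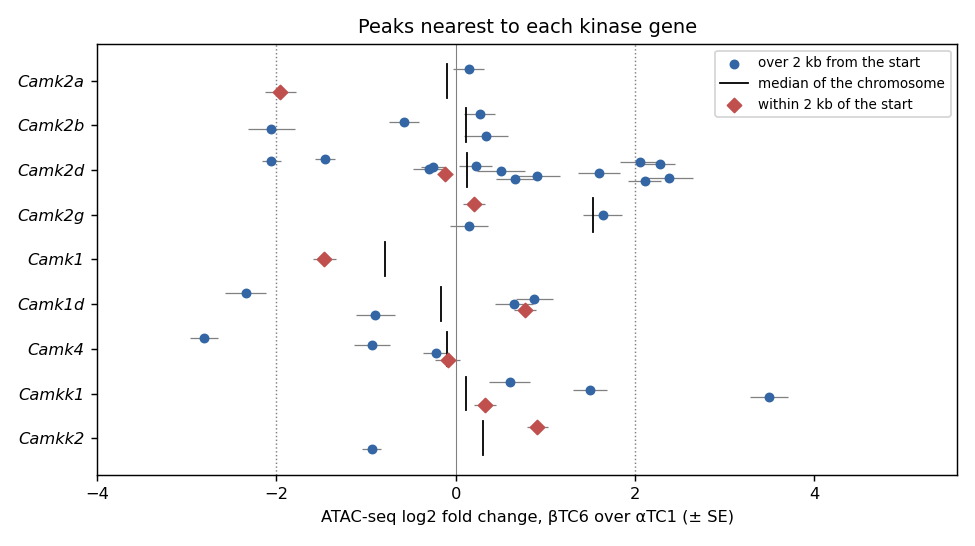
ATAC-seq log2 fold change (βTC6 over αTC1, error bars ± SE) of each of the 39 peaks, in rows by their nearest kinase gene. Red diamonds are peaks within 2 kb of the start, blue points other peaks, black ticks the median of all peaks on that chromosome, and dotted lines an absolute log2 fold change of 2. The Camk2d peaks spread from -2.06 to 2.38, and the Camkk1 peak at 3.50 lies farthest to the right.

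Camk2d had 14 of the 39 peaks, and they moved in both directions. The peak at its start (chr3:126298890-126300705) was the strongest of the family, with normalized read counts of 129, 140, 141, 130 and 112 in αTC1 and 124, 120, 111, 109 and 135 in βTC6. The ranges overlapped, and the log2 fold change was -0.12 (SE 0.09, adjusted p = 0.214 from limma, and 0.0227 with replicates 1 to 3 alone). Away from the start, βTC6 was the more open line at 7 peaks and αTC1 at 2 (FDR under 5%), and 5 peaks did not pass, the start-site peak among them. The upstream peak 105522 bp before the start (chr3:126193809-126194929, intergenic) had 4.62, 7.30, 6.31, 5.05 and 6.07 normalized reads in αTC1 and 23.0, 24.0, 22.8, 30.0 and 48.3 in βTC6. All βTC6 libraries were above all αTC1 libraries, with replicate 5 the highest, and the log2 fold change was 2.11 (SE 0.18, adjusted p = 2.74e-09 from limma), or 1.92 without βTC6 replicate 5 and 1.80 with replicates 1 to 3 alone, which are below the fold-change threshold.

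Inside the gene, the intronic Camk2d peak 107992 bp past the start (chr3:126407641-126408125) had 5.88, 4.64, 3.91, 2.87 and 3.90 normalized reads in αTC1 and 22.4, 19.9, 27.2, 31.1 and 20.8 in βTC6. It was more open in every βTC6 library, with a log2 fold change of 2.28 (SE 0.17, adjusted p = 4.27e-10 from limma). In contrast, the intronic peak 147684 bp past the start (chr3:126447287-126447862) had 41.9, 40.3, 42.1, 41.5 and 47.8 in αTC1 and 8.24, 10.1, 9.59, 10.6 and 9.11 in βTC6. It was less open in every βTC6 library, by -2.06 on the log2 scale (SE 0.11, adjusted p = 1.86e-12 from limma), in the intron of a gene whose RNA was higher in βTC6. The neighbouring intronic peak 149610 bp past the start moved the same way, at 33.0 ± 2.88 normalized reads (SD, n = 5) in αTC1 against 11.3 ± 1.17 in βTC6 (log2 fold change -1.46). Weaker peaks more open in βTC6 lay 33006 bp before the start (1.02 ± 0.712 against 9.66 ± 4.39, log2 fold change 2.38) and 133916 bp past it (1.48 ± 0.554 against 9.24 ± 1.83, log2 fold change 2.05). With quantile normalization these were 1.97 and 1.63, both short of the threshold. The peak at 133916 bp was also short of it with replicates 1 to 3 alone (1.77), without αTC1 replicate 5 (1.93) and without βTC6 replicate 2 (1.98). Of the remaining peaks, those 46611 bp past the start and 26099 and 64517 bp before it passed the FDR with log2 fold changes of 1.60, 0.91 and 0.66, and with quantile normalization the latter 2 no longer passed (adjusted p = 0.163 and 0.862 from limma). The peak 64517 bp before the start also did not pass with replicates 1 to 3 alone (0.0548) or 4 and 5 alone (0.0767). With edgeR on reads recovered from the normalized counts, the peak at 46611 bp changed by 2.003, past the fold-change threshold. The 4 intronic peaks between 90181 and 104609 bp past the start did not pass, with log2 fold changes from -0.30 to 0.50. Of these, the peak at 90181 bp passed without αTC1 replicate 4 (adjusted p = 0.0414) or with replicates 1 to 3 alone (0.0471). That at 96448 bp passed without αTC1 replicate 3 (0.0485) or with quantile normalization (log2 fold change -0.54, adjusted p = 0.0110). That at 98658 bp passed without replicate 5 of αTC1 (0.0226) or of βTC6 (0.0137) or with replicates 1 to 3 alone (0.0115). The peaks within 5 Mb of the gene had a median log2 fold change of 0.41.

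The central 200 bases of the 3 Camk2d peaks given in full are shown to set the 2 peaks more open in βTC6 beside the intronic peak more open in αTC1. They were read from the mm9 genome on the plus strand, and capitals mark matches, on either strand, to 6 motifs: TGACGTCA (cAMP response element), CAGATG (E-box of NeuroD type, CATCTG on the other strand), CAGCTG (another E-box), TAATTA (homeodomain core), TGTTTAC (forkhead core) and TGCTGAC (part of the Maf recognition element). No match in the sequences shown overlapped another.
Camk2d upstream peak, chr3:126194270-126194469: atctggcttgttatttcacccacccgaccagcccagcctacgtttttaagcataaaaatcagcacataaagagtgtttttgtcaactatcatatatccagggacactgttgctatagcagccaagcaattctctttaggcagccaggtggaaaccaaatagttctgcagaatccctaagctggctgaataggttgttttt
Camk2d intronic peak more open in βTC6, chr3:126407784-126407983: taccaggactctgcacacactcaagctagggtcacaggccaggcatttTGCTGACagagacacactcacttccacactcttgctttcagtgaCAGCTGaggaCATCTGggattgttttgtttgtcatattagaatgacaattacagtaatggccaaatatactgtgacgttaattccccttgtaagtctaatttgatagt
Camk2d intronic peak more open in αTC1, chr3:126447475-126447674: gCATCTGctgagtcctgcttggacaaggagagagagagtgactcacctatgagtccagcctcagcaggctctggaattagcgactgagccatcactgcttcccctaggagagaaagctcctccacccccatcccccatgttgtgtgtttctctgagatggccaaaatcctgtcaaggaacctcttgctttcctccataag
The upstream peak held none of the 6 motifs in this window, the intronic peak more open in βTC6 held both E-boxes and the Maf motif, and the other held the NeuroD-type E-box. In windows of the same length, the NeuroD-type E-box was present in 23.2% of all 65053 peaks, the other E-box in 17.2% and the Maf motif in 4.86%.

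For Camk2b, the gene with the widest RNA difference, none of its 4 peaks passed the test with higher values in βTC6. The 4 peaks were intronic and lay between 32461 and 54676 bp past the start. The peak at 44318 bp (chr11:5921230-5921635) had 10.2, 8.99, 14.7, 12.0 and 8.09 normalized reads in αTC1 and 2.84, 1.64, 2.57, 2.14 and 0.47 in βTC6. Every βTC6 library was below every αTC1 library, and the log2 fold change was -2.06 (SE 0.26, adjusted p = 4.55e-07 from limma), or -1.947 without αTC1 replicate 3, -1.83 without βTC6 replicate 5 and -1.87 with replicates 1 to 3 alone, all short of the fold-change threshold. A second intronic peak, at 46993 bp, had 18.3 ± 2.88 (SD, n = 5) in αTC1 and 12.2 ± 3.35 in βTC6, with overlapping ranges (log2 fold change -0.57, adjusted p = 0.00392 from limma, and 0.191 with replicates 4 and 5 alone). The peak nearest to the start, at 32461 bp, had 2.88 ± 1.04 and 3.90 ± 1.37 normalized reads (log2 fold change 0.34, adjusted p = 0.215 from limma), and the peak at 54676 bp 0.771 ± 0.408 and 1.12 ± 0.403 (0.27, adjusted p = 0.156). The 245 peaks within 5 Mb of Camk2b had a median log2 fold change of -0.52, close to the value of the peak at 46993 bp. In GENCODE annotation of the same build, the nearest consensus peak of any annotation lay 33075 bp from the 5′ end of the gene. A further 3 peaks inside Camk2b are given to the neighbouring gene Ykt6. The strongest of them (chr11:5900135-5900768) covers an annotated internal start of Camk2b, 65914 bp from the 5′ end, and was more open in αTC1, at 34.8 normalized reads on average against 12.4 in βTC6 (log2 fold change -1.42, adjusted p = 1.16e-09 from limma), opposite to the RNA. Of the others, 1 was more open in βTC6, at 3.18 and 9.39 (log2 fold change 1.29), and 1 did not pass, at 12.1 and 8.93 (log2 fold change -0.39, adjusted p = 0.0707 from limma).

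The window of the Camk2b peak more open in αTC1 is shown because its direction was opposite to that of the RNA.
Camk2b intronic peak, chr11:5921333-5921532: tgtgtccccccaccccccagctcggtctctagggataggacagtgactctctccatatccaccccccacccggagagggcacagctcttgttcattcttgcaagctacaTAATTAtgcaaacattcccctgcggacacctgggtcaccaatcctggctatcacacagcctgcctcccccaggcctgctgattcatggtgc
It held 1 motif match, the homeodomain core TAATTA, which 6.93% of all peaks held.

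At the Camk2g start (chr14:21612827-21613770) the normalized read counts were 17.9, 17.7, 20.4, 17.2 and 15.2 in αTC1 and 24.9, 21.5, 20.4, 20.3 and 16.3 in βTC6. The ranges overlapped (log2 fold change 0.21, SE 0.12, adjusted p = 0.129 from limma, and 0.0295 without βTC6 replicate 5), on a chromosome whose 2830 peaks had a median of 1.54. The peak 4792 bp upstream of Camk2g had 1.82 ± 0.428 (SD, n = 5) in αTC1 and 7.86 ± 1.71 in βTC6. It changed by 1.64, close to that median, or by 2.09 with edgeR on recovered reads, past the fold-change threshold. The peak 9635 bp upstream changed by 0.15 (adjusted p = 0.530 from limma). At the Camk2a start, 102 bp upstream, the values were 23.0, 24.4, 26.8, 26.6 and 32.2 in αTC1 and 5.96, 3.28, 7.30, 6.71 and 8.26 in βTC6. All αTC1 libraries were above all βTC6 libraries, and the log2 fold change was -1.96 (SE 0.18, adjusted p = 4.89e-09 from limma), while the RNA of Camk2a stood at 7 expected counts or fewer in every library of both lines. The log2 fold change of this peak passed the threshold under other settings, at -2.04 with a pseudocount of 0.5, -2.06 with quantile normalization and -2.03 with edgeR on recovered reads, and it ranged from -2.05 to -1.78 when single libraries were left out. The intronic Camk2a peak 14820 bp past the start had 7.42 ± 1.15 and 8.34 ± 1.44 normalized reads (adjusted p = 0.451 from limma).

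Both genes of the family that were higher in αTC1 encode effector kinases. Camk1 (ENSMUSG00000030272), encoding CaMKI, had 28.7, 28.0 and 30.8 FPKM in αTC1 and 14.2, 12.4 and 14.6 in βTC6. It was lower in every βTC6 library, with a log2 fold change of -1.04 (SE 0.10, adjusted p = 1.32e-05 from edgeR), on chromosome 6, where the median of all 579 genes tested was -0.76. Camk4 (ENSMUSG00000038128), encoding the largely nuclear kinase CaMKIV, had 18.6, 19.6 and 17.3 FPKM in αTC1 and 7.90, 7.24 and 8.71 in βTC6. The log2 fold change was -1.32 (SE 0.11, adjusted p = 6.13e-06 from edgeR), and the median over the chromosome's 297 genes was -0.25. In the annotation Camk4 overlaps another gene at its start, and how reads were split between them is uncertain. Camk1d (ENSMUSG00000039145), encoding CaMKIδ, had 0.63, 0.62 and 0.59 FPKM in αTC1 and 2.46, 1.43 and 2.45 in βTC6. All βTC6 values were higher, with replicate 2 the lowest of them, and the log2 fold change was 1.92 (SE 0.29, adjusted p = 2.76e-04 from edgeR). It passed 2 when 1 library was left out, at 2.04 without αTC1 replicate 1, 2.03 without αTC1 replicate 2 and 2.15 without βTC6 replicate 2.

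The single Camk1 peak covered its start (chr6:113293519-113294239, over the 5′ UTR) and had 31.1, 31.6, 29.9, 31.7 and 33.9 normalized reads in αTC1 and 12.9, 7.79, 11.1, 13.3 and 9.86 in βTC6. It was less open in every βTC6 library (log2 fold change -1.47, SE 0.13, adjusted p = 3.86e-09 from limma), the same direction as the RNA. The median of the 4291 peaks on chromosome 6 was -0.79, and the part of that chromosome-wide level in the Camk1 values was not tested. The sequence before the Camk1 start is shown because its start-site peak and its RNA were lower in the same line.
Camk1 promoter, bases 250 to 71 before the RefSeq start, GRCm38.p6 chr6:113343993-113344172, minus strand: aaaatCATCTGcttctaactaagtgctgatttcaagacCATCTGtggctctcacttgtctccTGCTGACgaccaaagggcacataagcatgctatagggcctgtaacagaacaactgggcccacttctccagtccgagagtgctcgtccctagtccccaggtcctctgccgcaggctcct
Capitals mark the same motifs as above. CAGATG, which occurred at 2 places on the other strand, was held by 10.8% of the 32851 RefSeq promoter entries in a stretch of the same length and position, and TGCTGAC by 2.61%.

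At the start of Camk4 a difference between the lines was not detected, at 32.8 ± 6.30 normalized reads (SD, n = 5) in αTC1 and 30.6 ± 5.10 in βTC6, with overlapping ranges (log2 fold change -0.09, SE 0.14, adjusted p = 0.565 from limma). Its intronic peak 61533 bp past the start had 30.1, 31.3, 32.9, 32.5 and 30.5 in αTC1 and 2.70, 3.69, 5.00, 4.57 and 2.63 in βTC6. The αTC1 libraries were tightly grouped and far above all βTC6 libraries (log2 fold change -2.81, SE 0.16, adjusted p = 5.43e-12 from limma). This was the widest difference toward αTC1 among the 39 peaks. A weaker intronic peak 31274 bp past the start also was more open in αTC1, at 8.97 ± 0.935 and 4.33 ± 1.13 (log2 fold change -0.93), and the peak at 29661 bp did not pass the test (adjusted p = 0.185 from limma), though it did without βTC6 replicate 5 (0.0473). The median over the peaks within 5 Mb of the gene was -0.43, and around Camk1d it was -0.66.

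Camk1d had peaks in both directions, and all 5 passed the FDR. Its start-site peak (chr2:5634222-5636148) had 16.0, 22.5, 24.8, 19.4 and 20.7 normalized reads in αTC1 and 34.9, 42.3, 35.4, 37.1 and 29.5 in βTC6. The βTC6 values were all higher, as for the RNA, with a log2 fold change of 0.77 (SE 0.12, adjusted p = 8.54e-06 from limma). The intronic peak 247021 bp past the start (chr2:5388224-5389153) had 14.6, 9.55, 12.0, 15.7 and 21.5 in αTC1 and 1.70, 2.46, 2.84, 2.14 and 1.13 in βTC6. It was more open in every αTC1 library (log2 fold change -2.34, SE 0.23, adjusted p = 1.47e-08 from limma), and replicates 1 to 3 alone gave -1.97. The remaining Camk1d peaks were low, with means from 1.22 to 9.68 normalized reads, and 2 intronic ones were higher in βTC6 by 0.88 and 0.66 on the log2 scale while the upstream one, 15979 bp before the start, changed by -0.90. With quantile normalization the 2 intronic ones no longer passed, at 0.31 and 0.10 on the log2 scale, and the latter also did not with replicates 4 and 5 alone (adjusted p = 0.160). The window of the Camk1d peak more open in αTC1 is shown for comparison with that of Camk2b, as both run against the RNA of their gene.
Camk1d intronic peak, chr2:5388589-5388788: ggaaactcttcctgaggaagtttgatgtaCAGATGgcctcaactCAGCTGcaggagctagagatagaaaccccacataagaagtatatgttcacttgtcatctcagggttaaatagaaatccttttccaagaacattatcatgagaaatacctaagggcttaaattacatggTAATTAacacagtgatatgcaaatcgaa
It held both E-boxes and the homeodomain core, and the latter was also in the Camk2b window.

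The upstream kinases, which phosphorylate CaMKI and CaMKIV and in the case of CaMKK2 also AMPK, were both higher in βTC6. Camkk1 (ENSMUSG00000020785) had 1.81, 1.77 and 2.23 FPKM in αTC1 and 11.8, 10.7 and 12.0 in βTC6. Every βTC6 library was well above every αTC1 library, and the log2 fold change was 2.66 (SE 0.13, adjusted p = 1.83e-07 from edgeR), or 6.30-fold. The 146 genes tested within 5 Mb of Camkk1 had a median of 0.93. Camkk2 (ENSMUSG00000029471) had 5.95, 5.35 and 5.87 FPKM in αTC1 and 10.7, 7.85 and 10.1 in βTC6, a log2 fold change of 0.88 (SE 0.13, adjusted p = 2.44e-04 from edgeR). With ERCC library sizes it was 0.86, with an adjusted p of 0.134. As a share of the summed CaMKK FPKM, Camkk1 made up 23.3%, 24.9% and 27.5% in αTC1 and 52.3%, 57.8% and 54.3% in βTC6.

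All 4 Camkk1 peaks were more open in βTC6 at an FDR under 5%, although the calls of 2 of them, the start-site peak and a low intronic one, were lost under other settings. The intronic peak 4350 bp past the start (chr11:72836686-72837034) had 0.14, 0.14, 0.45, 0.68 and 0.14 normalized reads in αTC1, which correspond to 1 to 5 reads, and 17.9, 11.5, 15.4, 13.8 and 10.6 in βTC6, from 56 to 126 reads. It was near the floor of 3 reads in αTC1 and open in every βTC6 library, and its log2 fold change of 3.50 (SE 0.22, adjusted p = 2.04e-11 from limma) was the widest among the 39 peaks. With a pseudocount of 5 it was 1.81, below the fold-change threshold and smaller in size than the -2.07 of the Camk4 intronic peak. The peaks within 5 Mb had a median of 0.41. The intronic peak 12149 bp past the start rose from 4.59 ± 0.688 (SD, n = 5) to 15.2 ± 3.98 (log2 fold change 1.50, adjusted p = 4.34e-07 from limma). The start-site peak itself had 21.3 ± 2.06 and 27.2 ± 4.32, with overlapping ranges, and its log2 fold change of 0.33 (adjusted p = 0.0180 from limma) no longer passed without αTC1 replicate 4 (adjusted p = 0.0532) or βTC6 replicate 1 (0.0590), or with replicates 1 to 3 alone (0.0642) or 4 and 5 alone (0.180). A low peak at 12746 bp had 2.27 ± 0.886 and 3.93 ± 1.02 (log2 fold change 0.60, adjusted p = 0.0218 from limma). With quantile normalization its log2 fold change was 0.07 (adjusted p = 0.788), and it passed neither with replicates 1 to 3 alone (0.186) nor with 4 and 5 alone (0.0790). It also no longer passed when αTC1 replicate 1, 2 or 4 or βTC6 replicate 4 was left out, with adjusted p-values from 0.0502 to 0.0616.

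The window of the Camkk1 intronic peak is shown because the peak had the widest difference of the family with a pseudocount of 1.
Camkk1 intronic peak, chr11:72836761-72836960: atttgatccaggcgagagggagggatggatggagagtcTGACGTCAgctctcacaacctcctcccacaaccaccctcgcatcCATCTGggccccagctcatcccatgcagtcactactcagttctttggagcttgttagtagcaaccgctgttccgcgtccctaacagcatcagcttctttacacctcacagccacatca
It held the cAMP response element TGACGTCA, to which CREB family factors are known to bind, and 1 CAGATG match. TGACGTCA was present in 0.761% of all peak windows and in no other of the 39.

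Camkk2 had 2 peaks, which moved in opposite directions. Its start-site peak (chr5:123228788-123230469) had 15.7, 17.0, 13.7, 14.2 and 15.0 normalized reads in αTC1 and 30.4, 27.9, 30.5, 35.2 and 23.4 in βTC6. It was more open in every βTC6 library, as its RNA was higher there (log2 fold change 0.91, SE 0.12, adjusted p = 6.84e-07 from limma). The peak 20452 bp upstream, in an intron of Anapc5, had 41.8 ± 4.21 (SD, n = 5) in αTC1 against 21.3 ± 1.93 in βTC6 (log2 fold change -0.94, adjusted p = 5.96e-08 from limma).

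The mixtures, which are other libraries than those compared above, show whether a peak tracks the mixed proportion. There is 1 library per proportion, and a slope of log2(normalized read count + 1) per 10 percentage points of βTC6 cells was fitted with limma over the 9 mixtures. Of the 39 peaks, 13 rose and 8 fell with the βTC6 proportion at an FDR under 5%, against backgrounds of 33.5% and 24.8% of all peaks. All 9 kinase peaks called between the pure lines had a slope in the direction of their difference at an FDR under 5%, as did 98.6% of all 11911 called peaks, so this count is near the background. The Camkk1 intronic peak had 0.41, 2.08, 3.66, 3.93, 4.38, 4.70, 6.55, 5.89 and 9.28 normalized reads from 10% to 90% βTC6, rising by 0.28 (SE 0.05, adjusted p = 1.33e-04 from limma). At 20% βTC6 it was already above all 5 pure αTC1 libraries. The Camk2d intronic peak more open in αTC1 went from 43.9 at 10% βTC6 to 14.5 at 90%, with a slope of -0.19 (SE 0.02, adjusted p = 7.41e-07 from limma). For the Camk1d intronic peak the values were 19.3, 16.1, 14.0, 12.7, 10.5, 9.21, 5.88, 2.47 and 2.69, a decline from 10% to 80% βTC6 with the steepest slope of the 39, -0.32 (SE 0.04, adjusted p = 2.45e-06 from limma). The Camk4 intronic peak had a slope of -0.25, the Camk2b intronic peak -0.28 and the upstream Camk2d peak 0.19, with SEs from 0.025 to 0.051. Among the other Camk2d peaks the slope was 0.23 at 33006 and at 64517 bp before the start and 0.20 at 107992 bp past it.

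At 10% βTC6, some of the 9 called peaks lay outside the range of the 5 pure αTC1 libraries, on the side of βTC6. The Camk2d peaks 105522 and 33006 bp before the start and 107992 bp past it stood at 14.0, 3.66 and 7.52 normalized reads. Their highest pure αTC1 values were 7.30, 2.25 and 5.88. The Camk4 intronic peak stood at 23.6, below the lowest pure value of 30.1. The share of all called peaks outside the pure range at either end was not determined. At 90% βTC6, other called peaks lay outside the range of the 5 pure βTC6 libraries, on the side of αTC1. The Camkk1 intronic peak stood at 9.28 normalized reads, below the lowest pure value of 10.6, the Camk2d peak 133916 bp past the start at 4.57, below 6.39, and the Camk2d peak more open in αTC1 at 14.5, above the highest pure value of 10.6. The Camk2a start-site peak fell from 29.5 to 11.4 (slope -0.15, SE 0.02, adjusted p = 4.54e-05 from limma), and the Camk1 start-site peak from 28.0 to 14.1 (slope -0.09, SE 0.02, adjusted p = 0.00159 from limma). The Camkk1 and Camk4 start-site peaks had slopes of 0.0037 and 0.035 with adjusted p-values of 0.891 and 0.165. The Camkk2 start-site peak, which differed between the pure lines, had a slope of 0.07 (SE 0.03) with an adjusted p of 0.0506. It passed at 0.0269 without the 90% βTC6 mixture and at 0.0117 without the 10% one. The Camk2b peak at 46993 bp also differed between the pure lines. Its slope was 0.0019 (SE 0.034, adjusted p = 0.966 from limma). Its mixture values, from 7.40 to 12.2 normalized reads, were all below the lowest pure αTC1 value of 13.9. The start-site slopes of Camk1d (0.09), Camk2d (0.03) and Camk2g (0.08) passed over the 9 mixtures, at adjusted p-values of 0.00371, 0.0455 and 0.0141. Without the 90% βTC6 mixture those of Camk1d and Camk2d did not pass (0.0737 and 0.322). Without the 10% one those of Camk2g and Camk2d did not (0.0683 and 0.166). Leaving out the 30%, 40%, 50% or 60% βTC6 mixture also ended the call of Camk2d. The Camk2d slope was opposite in sign to the log2 fold change of that peak between the pure lines (-0.12), which had not passed.

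**Figure D4:**
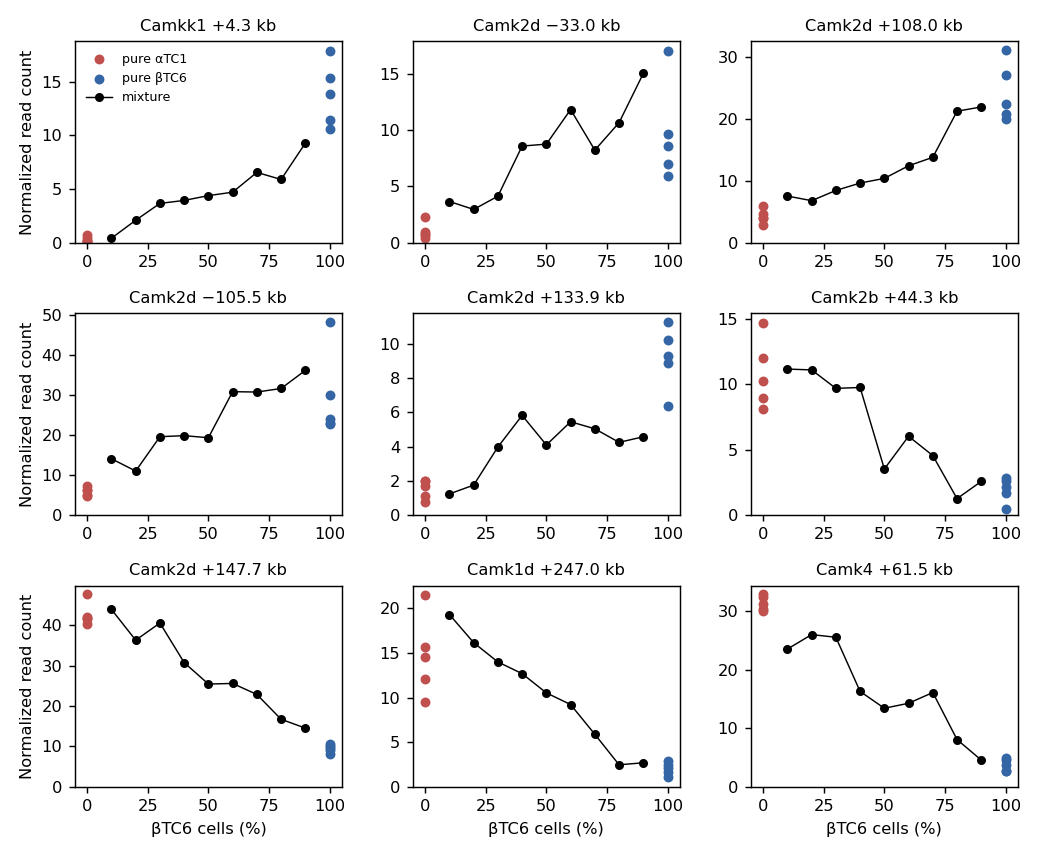
Normalized read count of the 9 called kinase peaks against the percentage of βTC6 cells. Black points are the 9 mixtures, red points at 0% the 5 pure αTC1 libraries and blue points at 100% the 5 pure βTC6 libraries, and panel titles give the distance from the transcription start. The Camkk1 peak rises from 0.41 at 10% to 9.28 at 90% βTC6, and the Camk1d peak falls from 19.3 to 2.69.

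Around the kinases, a list of genes for calmodulin, the calcium sensor that activates them, calmodulin-binding proteins and CaMKII inhibitors was examined. Calm2, encoding calmodulin, had 514 ± 30.5 FPKM (SD, n = 3) in αTC1 and 520 ± 65.2 in βTC6, with an adjusted p of 0.529 from edgeR. Calm3 was lower in βTC6, at 158 ± 3.58 against 197 ± 22.8 (log2 fold change -0.30, adjusted p = 0.0186 from edgeR). In this list, 4 of 9 tested genes were higher in βTC6, 2 were lower and 3 did not pass, against backgrounds of 38.7% of all genes tested that were higher in βTC6 and 36.0% that were lower, which also apply to the lists that follow. Pcp4 and Nrgn, which encode small proteins that bind calmodulin through an IQ motif, had log2 fold changes of 4.94 and 3.49, from 0.803 to 24.1 FPKM and from 0.373 to 4.07. The 2 inhibitor genes moved apart, with Camk2n1 at 19.6 ± 0.818 and 54.2 ± 5.57 FPKM and Camk2n2 at 54.2 ± 2.49 and 31.3 ± 2.45. These were named after their values were seen, as the genes of the endogenous CaMKII inhibitors.

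In 5 other lists, 4 of which had genes past the FDR in both directions, the median log2 fold change ranged from -0.13 to 0.52, beside 0.0094 over all genes tested. Of the other calmodulin-regulated kinases, 6 of 13 were tested, 4 were higher in βTC6 and 1 was lower, and Pnck, encoding CaMKIβ, was listed at 0, 0 and 0.03 FPKM in αTC1 and at 2.27, 2.14 and 1.64 in βTC6. Of the calcineurin and CaMK phosphatase list, 5 of 10 tested genes were higher in βTC6 and 2 lower, with Rcan2, a calcineurin regulator, at 3.81 ± 0.670 and 26.2 ± 4.29 FPKM (log2 fold change 2.85, adjusted p = 4.02e-07 from edgeR). AMPK subunits and the LKB1 complex were split, with 4 higher, 4 lower and 3 not passing of 11 tested. Among transcription factors and coregulators downstream of the kinases, 6 of 15 were higher and 6 lower. The class IIa histone deacetylase genes Hdac4 and Hdac5, whose products CaMK phosphorylation is known to move out of the nucleus, changed in opposite directions, Hdac4 from 21.3 ± 2.87 to 4.80 ± 0.418 FPKM (log2 fold change -2.09) and Hdac5 from 7.49 ± 0.744 to 32.9 ± 2.88 (2.22). Of 7 tested CaMKII substrates and anchors, 4 were higher in βTC6 and none was lower, against 38.7% and 36.0% of all genes tested.

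The activity-induced genes, which calcium signals are known to switch on within minutes to hours, had the highest median of the 7 lists, 2.09, with 6 of 10 tested genes higher in βTC6 and 1 lower (38.7% and 36.0% of all genes tested). The βTC6 libraries were far apart in them. Fos had 26.6, 22.8 and 8.37 FPKM in αTC1 and 104, 18.3 and 236 in βTC6, so that βTC6 replicate 2 lay within the αTC1 range (log2 fold change 2.69, SE 0.77, adjusted p = 0.0106 from edgeR). Fosb had 4.92, 4.92 and 2.08 in αTC1 and 8.95, 1.52 and 49.3 in βTC6, where replicate 2 was below every αTC1 library. Egr1 had 22.7, 20.6 and 8.19 in αTC1 and 148, 52.5 and 210 in βTC6, and Arc 0.80, 0.51 and 0.90 against 4.13, 4.21 and 6.43, without overlap of the lines. In βTC6 replicate 2, which was the lowest of its line in Fos and Egr1, Camk2b, Camk1, Camk1d, Camk4, Camkk1 and Camkk2 were also at their lowest βTC6 level and Camk2d at its highest on the FPKM scale, although on the scale of counts corrected for library size alone (CPM) Camk4 was lowest in replicate 1, at 29.5 against 29.7. This library was singled out after its values were seen, and the share of all genes lowest in it was not determined. A link between the kinase levels and the activity-induced genes was not tested. Without this library, 6 kinase genes were higher in βTC6 and 2 lower at an FDR under 5%, as with it.

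**Figure D5:**
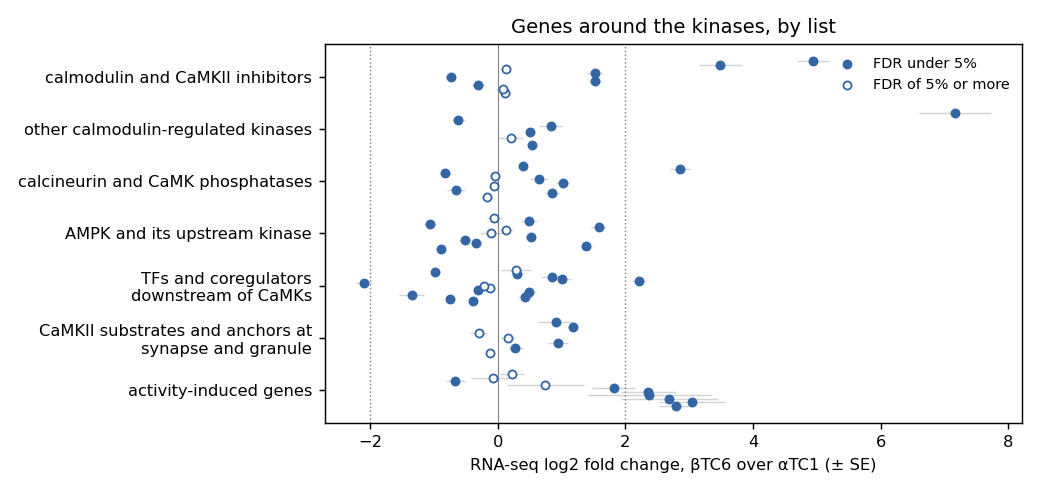
RNA-seq log2 fold change (βTC6 over αTC1, error bars ± SE) of the tested genes of the 7 lists around the kinases. Filled points passed an FDR of 5% and dotted lines mark an absolute log2 fold change of 2. Most points lie within 2 of 0, and the activity-induced genes are centred at 2.09.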

How the data were processed

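Per the labels and the study's methods, the authors aligned ATAC-seq reads to mm9 with BWA 0.7.9a, used Picard 1.95 to remove duplicates and MACS2 2.1.0 to call peaks on each library, formed consensus peaks with DiffBind 2.2.5 and deposited TMM-normalized read counts as the signal per peak, with nearest gene and start distance from HOMER 4.6. The deposited expected counts and FPKM values come from the authors' pipeline of Trim Galore, Bowtie2 and RSEM 1.2.12. Peak type columns hold the authors' own differential and signature calls and were not used. All ATAC-seq values were whole multiples of their library's lowest value within 0.02, so reads were recovered, and the table holds no 0. Gene spans are from GENCODE vM1. Whether deposited peak starts count from 0 or 1 is not given in the sources used here, and windows were read with starts counted from 1.

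Genes reaching 1 FPKM in every replicate of αTC1 or of βTC6 were tested with edgeR 4.0.16 (glmQLFit, glmQLFTest, TMM) on expected counts rounded to whole numbers, without ERCC rows, and peaks and mixture slopes with limma 3.58.1 (trend) on log2(normalized read count + 1), with Benjamini-Hochberg adjustment over all features (R 4.3.3, Python 3.11.15). For genes, SEs were obtained as the size of the log2 fold change over the root of edgeR's F. The study used RUVSeq, which was not run, and a fit with 1 ERCC factor as covariate was an alternative in its place, beside DESeq2 1.42.0 and others. Tests were checked on simulated data. Floors of 3 counts cover counting error only. The kinases and gene lists were chosen with earlier results of these data known. All kinases, the calmodulin genes (of which 1 is not reported here) and per list up to 4 called genes with the largest change were named, and per kinase the peak nearest the start and up to 2 called peaks per direction with at least 10 normalized reads on average in the higher line. Hdac4 and Eef2k name 2 rows each, and the row with more counts was used.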

Additional observations from a re-analysis of the deposited data

Results flagged for a closer look

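Each of the 39 peaks was examined for a library far from the other 4 of its line, in 78 groups of 5 libraries, and 8 values stood apart. Chance alone puts about 1 in 20 such groups on the list. Normalized read counts were higher than in the other 4 libraries in 3 cases. The Camk2d peak 105522 bp before the start had 48.3 in βTC6 replicate 5 against 22.8 to 30.0, the Camk2d peak 33006 bp before the start had 2.25 in αTC1 replicate 2 against 0.451 to 0.955, and the Camk2d peak 147684 bp past the start had 47.8 in αTC1 replicate 5 against 40.3 to 42.1. Lower values were found in 5 cases. The Camk1d peak 15979 bp before the start had 2.26 in βTC6 replicate 2 against 5.28 to 5.81, and the Camk2g peak 9635 bp before the start had 2.87 in the same library against 4.46 to 4.88. The Camk2d peak 46611 bp past the start had 4.69 in βTC6 replicate 5 against 8.56 to 9.02. In αTC1 replicate 5, the Camk2d peak 98658 bp past the start had 21.5 against 27.8 to 29.9, and the Camk4 start-site peak 21.7 against 34.7 to 37.0.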

How the results depend on the processing

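Kinase genes called on RNA numbered 2 under every other test, normalization or filter tried and 2 to 3 when single libraries were left out. The count of all genes called was 1743, rising to 3530 without the FPKM filter, which tests more genes, and falling to 979 with limma on log2(FPKM + 1). Leaving out single RNA-seq libraries gave from 1749 to 1820. The 9 called kinase peaks became 1 with a pseudocount of 5, which shrinks the fold changes of low peaks, were 12 with edgeR on recovered reads and numbered from 8 to 10 when single libraries were left out. All called peaks numbered 11911, against 2487 with a pseudocount of 5 and 19533 with edgeR on recovered reads. The 21 kinase peaks with a mixture slope were 15 without the 10% and 90% mixtures, and all peaks with a slope fell from 37912 to 24808 there. Among the named genes and peaks, directions reversed only for differences that had not passed. With quantile normalization the log2 fold changes of the start-site peaks of Camk2d and Camk4 were 0.38 and 0.20 and that of the Camk2b peak nearest its start -0.16. With replicates 4 and 5 alone they were 0.0055, 0.047 and -0.055. The Camkk1 start-site slope was -0.030 without the 10% and 90% mixtures, and from -0.011 to 0.022 when single mixtures were left out. For these the cause was not tested. Deviations of same-numbered libraries from their line means correlated at -0.036 to 0.069. The best match of the αTC1 library was the βTC6 library of the same number for ATAC-seq replicates 1, 4 and 5 and RNA-seq replicate 2. Correlations this small, from 3 or 5 libraries a line, do not exclude a pairing. With the replicate number as a block, 2 kinase genes of 1744 genes and 9 kinase peaks of 11911 peaks were called. Depth limited Camk2a, near the floor in both lines, and the low peaks, and mixtures had 1 library per proportion.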

Other observations

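Inside 4 of the kinase genes lay 17 further peaks that the table gives to a neighbouring gene, so that they are outside the 39 described above. Of these, 4 had higher values in βTC6 and 9 had higher values in αTC1 with an FDR under 5% (limma), against backgrounds of 39.9% and 38.1% of all peaks, with 1 in each direction past an absolute log2 fold change of 2, against 12.9% and 5.38%. An intronic stretch of Camk2d held a peak given to Ank2 with 1.04 normalized reads on average in αTC1 against 10.6 in βTC6 (log2 fold change 2.50, SE 0.23, adjusted p = 4.39e-09), 1819 bp from an annotated internal start of Camk2d. Of the 7 such peaks inside Camk4, which are given to Stard4, the farthest apart had 10.8 and 1.23 (log2 fold change -2.40, SE 0.24, adjusted p = 1.54e-08). The strongest of the 3 inside Camk1d, given to Ccdc3, had 98.0 in αTC1 against 47.8 in βTC6 (log2 fold change -1.01, SE 0.10, adjusted p = 1.60e-08). These peaks were chosen after their values were seen.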
